A study of Cynoglossus semilaevis with 24 samples.

Results

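Striated muscle, the tissue of skeletal muscle and heart, is built from sarcomeres, and the genes described here are the 92 of 22773 entries in a Chinese tongue sole gene table whose deposited description names a sarcomere or muscle calcium protein. An entry was taken when its description held any of 10 terms: troponin, tropomyosin, nebulin, titin, myosin heavy chain, myosin light chain, myosin-binding protein C, parvalbumin, myomesin or sarcoplasmic. The rule used words only and no measured value, but it was set with earlier results of these data known. Of the 92, 86 carried an NCBI gene identifier and 6 were unannotated loci, and 80 were found in the RefSeq gene table of assembly Cse_v1.0, which gave 34 of them a symbol other than a LOC number. The genes fell into 12 striated myosin heavy chains, 11 troponin I, 10 titin-like, 9 parvalbumin, 8 SERCA calcium pump, 6 myomesin, 6 tropomyosin, 6 troponin T, 5 myosin light chain, 5 myosin light chain kinase, 4 troponin C and 4 myosin-binding protein C entries. The other entries were 2 nebulins, 2 called myosin heavy chain like protein, 1 smooth muscle myosin heavy chain and 1 junctional sarcoplasmic reticulum protein. The terms therefore also took in proteins that are not confined to striated muscle, among them the light chain kinases described as smooth muscle-like, several tropomyosins and the SERCA 2 and 3 pumps.

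RNA was sequenced from testis (the gonad of genetic males), male brain, male pituitary, male liver, ovary (the gonad of genetic females), female brain, female pituitary and female liver of Cynoglossus semilaevis, a flatfish. The fish, 15 males and 15 females, were 2 years old, and the labels give no treatment and no genotype beyond genetic sex. Each of the 8 groups had 3 libraries, and each library was a pool of tissue from 5 fish, so that p-values measure the spread between pools and not between single fish. Whether a pool of one organ held the same fish as a pool of another is not given.

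In a sarcomere, thick filaments of myosin heavy chain pull on thin filaments of actin. Tropomyosin lies along the thin filament and covers the myosin sites until calcium binds troponin C, troponin I holds the filament in its blocked state, and troponin T ties the complex to tropomyosin. Titin spans each arm of the sarcomere, nebulin lines the thin filament, myomesin links thick filaments at the M-band, and myosin-binding protein C sits on the thick filament. SERCA pumps return calcium to the sarcoplasmic reticulum, and parvalbumin buffers calcium in fast fibres and in some neurons. In a testis, the tubules are wrapped by contractile cells of smooth muscle type, and vessels carry smooth muscle as well.

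The total of estimated counts was 10032337 to 15409531 in 23 libraries and 25293744 in the first ovary pool. The 92 genes took 0.354 to 0.388% of the counts of a testis library and 0.127 to 0.146% of those of an ovary library. Of 4 genes typical of Sertoli and Leydig cells, 3 were higher in testis than in each other organ compared (all genes tested: 15.1%). The 4 genes summed to 94.5 to 115 FPKM (fragments scaled to transcript length and library size) in testis libraries, against 2.11 to 3.08 FPKM in ovary libraries. An oocyte list of 27 genes summed to between 131 and 158 FPKM in testis libraries, against 21100 to 25400 FPKM in ovary libraries. It also stood out in male brain pool 1 (160 FPKM), male pituitary pool 3 (178 FPKM), female pituitary pool 3 (130 FPKM) and female liver pool 1 (50.3 FPKM), with no other library of those groups above 71.2 FPKM. All libraries labelled liver carried genes of exocrine pancreas, at a summed 49200 FPKM or more over 27 genes.

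Most of the 92 genes had their highest group mean in testis. That was so for 55 genes, while male brain was highest for 12, ovary for 11, female brain for 6, each pituitary group for 3 and each liver group for 1. The share of all genes of the table with their highest mean in testis was not counted, so the 55 is no trait of these genes. These counts take in genes that stayed below 1 FPKM in every group. Their summed level was 1070 to 1180 FPKM in testis libraries, against 849 to 968 in male brain, 440 to 477 in male pituitary, 146 to 150 in male liver and 553 to 638 in ovary. It was 866 to 878 FPKM in female brain, 462 to 517 in female pituitary and 130 to 162 in female liver. Every testis library lay above every other library in this sum. Single genes held much of these sums, so they do not describe the 92 genes as a set. Among them were tpm1 in testis, with a mean of 160 FPKM, and the parvalbumins pvalb6 and pvalb7 in brain. In 70 of the 92 genes at least 1 group mean reached 1 FPKM, and the other 22 stayed below it in every group. In 45 of the 92 genes all 3 testis pools lay above each of the other 21 libraries, an arrangement found in 19.4% of the 22554 genes of the table with a value above 0.

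Testis was compared with ovary, and with male brain, male pituitary and male liver, by edgeR's quasi-likelihood test on estimated counts, and a gene was called at a Benjamini-Hochberg adjusted p under 0.05 over all genes tested. Against ovary 61 of the 92 genes passed the filter of 1 FPKM in at least 3 libraries, and 40 were higher and 13 lower in testis, where 45.4% of all genes tested were higher and 38.8% lower. Against male brain 65 passed, of which 42 were higher and 14 lower (all genes: 40.5% higher, 39% lower). Against male pituitary 43 of 65 were higher and 11 lower (39.2% and 37.1% of all genes). Against male liver 43 of 65 were higher and 12 lower (44.3% and 32% of all genes). The median log2 difference of the genes tested, testis minus the other organ, was 2.46 against ovary, 1.98 against male brain, 3.41 against male pituitary and 3.85 against male liver, beside 0.24, 0.05, 0.08 and 0.42 over all genes tested. The genes that passed the filter are not all 92, and a gene can pass through the group in which it is high. These are whole organs, so more cells of a type and more RNA per cell cannot be told apart. Without scaling beyond the count total the split against male liver was 57 higher and 3 lower, and the median of all genes moved to 1.04 against ovary and 2.77 against male liver. Of the 12 genes lower than male liver, 7 turned their direction without that scaling: XLOC_024526 (-1.37 with it, 1.03 without), LOC103388042 (-0.84 and 1.54), atp2a2b (-1.28 and 1.10), atp2a3 (-1.95 and 0.44), LOC103396474 (-1.72 and 0.70), tpm4a (-0.65 and 1.75) and LOC103397440 (-0.78 and 1.61).

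A gene was counted as raised in testis when edgeR called it higher in all 4 of these contrasts, which share the 3 testis libraries. By that rule 32 of the 58 genes tested in all 4 contrasts were raised (55.2%), and of all 15675 genes tested in all 4, 2373 were (15.1%). The filter fixed much of this count. Of the 58 genes, 23 reached it only through the testis libraries in both fits, and 21 of these were raised (all genes: 79.9% of 977). A gene that passes only through the organ in which it is high had to differ, so the 55.2% is no measure of all 92 genes. Of the 17 genes that reached it in both fits without testis, 3 were raised, tpm1, LOC103383309 and LOC103389160 (all genes: 10.5% of 10533). The other 8 raised genes reached it without testis in 1 of the fits. In each of the 32 the 3 testis pools lay above all other 21 libraries, which also held for 7 further genes of the 58 and for 25.3% of all genes tested. The log2 difference was at least 1 in every contrast for 28 of the 32. The testis mean was 10 FPKM or more in 15 and under 5 FPKM in 8. The mean in testis was at least 10 times that of the next highest group in 20 of the 32, with a median ratio of 13.6. By the muscle type written in the description, the raised genes were 10 of 18 fast-type genes, 1 of 7 slow-type, 3 of 7 cardiac or ventricular, 0 of 2 described as slow and cardiac, 2 of 5 smooth and 16 of 53 with no type named. All 10 fast-type and all 3 cardiac or ventricular genes among them passed the filter only through testis, and the difference between types was not tested. A further 7 fast-type, 3 slow-type and 4 cardiac genes stayed below 1 FPKM in every group. The 3 genes lower in testis in all 4 contrasts are given with the ovary and brain genes further on, beside 4.66% of all genes.

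**Figure D1:**
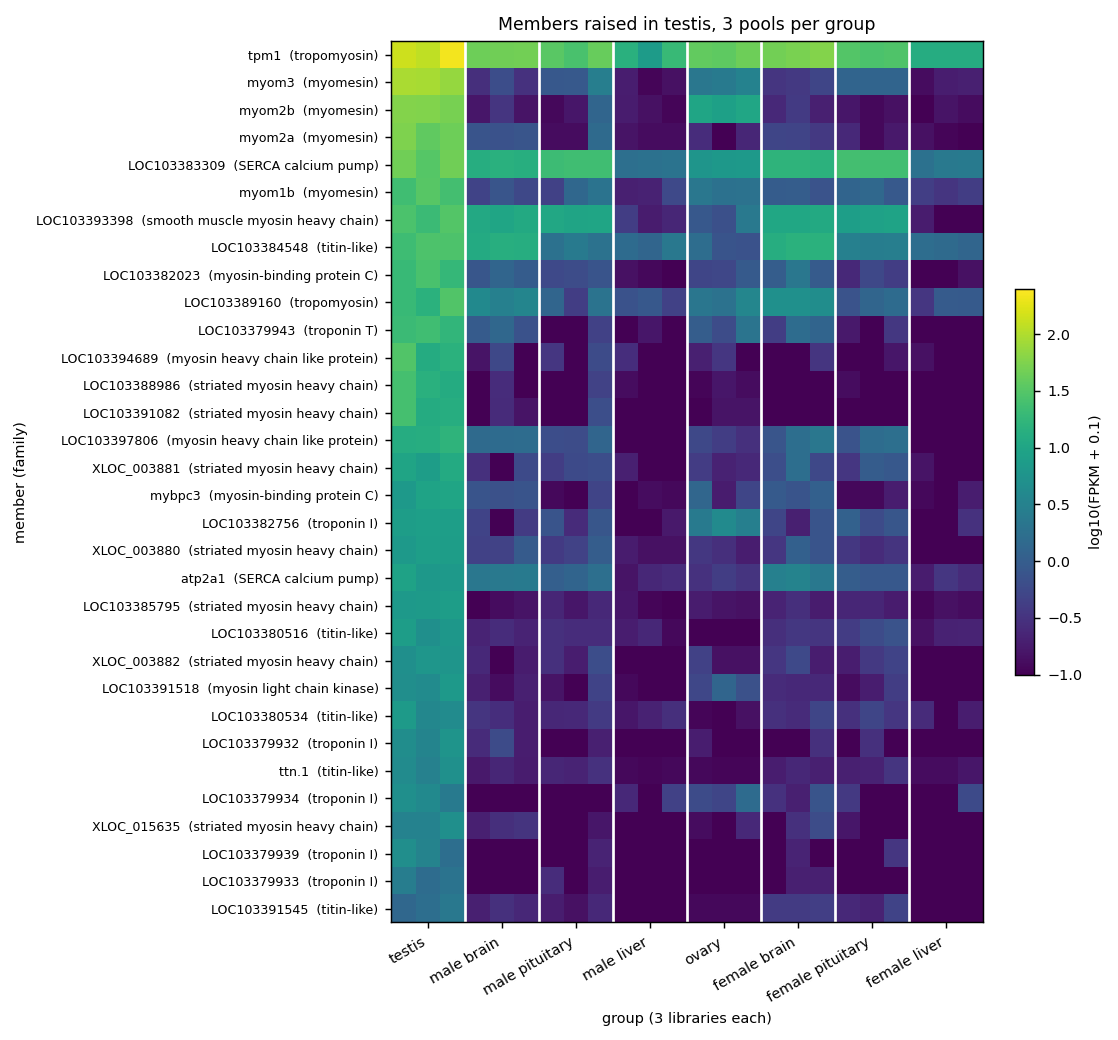
Level of the 32 of the 92 genes that were raised in testis, in each of the 24 libraries, as log10(FPKM + 0.1). Testis is on the left, and genes are ordered by their testis mean. The 3 testis columns hold the highest value in every row, and tpm1, LOC103383309, LOC103384548 and LOC103393398 also show clear levels in brain or pituitary.

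Of the 12 striated myosin heavy chains, the motors of the thick filament, 7 were raised and 5 were not tested in all 4 contrasts. The 7 passed the filter only through the testis libraries, so that being tested came close to being raised. With no filter 3 more were raised (LOC103379498, LOC103385750 and LOC103392882). LOC103388986, described as a cardiac muscle myosin heavy chain, had 24.7, 14.3 and 12.3 FPKM in testis pools 1 to 3, against 0.01, 0.06 and 0.03 FPKM in ovary pools. Outside testis its highest single value was 0.37 FPKM, in male pituitary pool 3, so the groups lay far apart. Its testis minus ovary log2 difference was 8.27 ± 0.51 (SE, edgeR adjusted p = 7.95e-08), and the smallest of its 4 differences was 6.72, against male pituitary. LOC103391082, a myosin heavy chain entry named after a clone, followed it closely with 24.6, 12.2 and 13.0 FPKM in testis pools, against 0, 0.05 and 0.05 FPKM in ovary pools. No count was found in male liver, which puts LOC103391082 at least 76.1-fold higher in testis on the scaled counts of the fit and at least 399-fold by count totals alone (3 counts set over the male liver group). In both genes testis pool 1 was the highest.

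The fast-type myosin heavy chains were lower but steadier between testis pools. LOC103385795 had 6.62, 7.07 and 7.80 FPKM in testis, against 0.08, 0.05 and 0.04 FPKM in ovary, with a difference of 6.05 ± 0.29 log2 units (edgeR adjusted p = 7.51e-09). The unannotated loci XLOC_003880, XLOC_003881 and XLOC_003882, numbered in a row and all described as fast skeletal muscle myosin heavy chain, averaged 7.50 ± 0.544, 9.67 ± 2.02 and 5.52 ± 0.629 FPKM in testis (SD, n = 3 pools). Their means in the next highest group were 0.633, 0.86 and 0.277 FPKM. Loci in a row with 1 description can be pieces of 1 gene or close copies that share reads, so their separate values are uncertain. XLOC_015635, described as ventricular myosin heavy chain, was the least abundant with 3.10, 3.16 and 4.90 FPKM in testis against 0.03, 0 and 0.15 FPKM in ovary.

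Of the 2 entries called myosin heavy chain like protein, a description taken from the pufferfish Takifugu rubripes, both were raised. LOC103394689 had 30.2, 12.2 and 14.6 FPKM in testis pools, and its highest other group mean was 0.25 FPKM, in male pituitary. LOC103394689 passed the filter only through testis. LOC103397806 averaged 13.9 ± 1.94 FPKM in testis (SD, n = 3) and 1.45 FPKM in female brain, the next group. Its deposited symbol does not name a myosin, so the description alone does not show that the protein is one. The smooth muscle myosin heavy chain LOC103393398 was raised as well, but only slightly over brain and pituitary: it had 27.6, 20.7 and 31.3 FPKM in testis and 11.2, 9.77 and 11.5 FPKM in male brain, and the smallest difference, against male pituitary, was 0.96 ± 0.24 log2 units (edgeR adjusted p = 0.00174).

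Myosin light chains, which sit on the neck of the motor, did not meet the rule. Nor did any troponin C, parvalbumin, nebulin or junctional protein entry. Tested in all 4 contrasts were 2 of 5 light chains, 2 of 4 troponin C and 3 of 9 parvalbumin entries. Of the nebulins 1 of 2 was tested, and so was the 1 junctional entry. An entry that was not tested could not meet the rule. None of these entries met it with edgeR's adjusted p, at an unadjusted p under 0.05 or with DESeq2 (0 of 21 each). Other settings did raise some of them: myl1, mylz3, neb and tnnc1a without scaling and with limma on either log2 scale, LOC103392898 with both limma scales, LOC103395946 with limma on log2(FPKM + 1), mylz3 with a 5 FPKM filter and the light chain LOC103390377 with no filter. Both light chains that were tested were higher in testis than in all 3 male organs and missed the threshold against ovary. The fast muscle light chain mylz3 had 15.2, 19.9 and 11.2 FPKM in testis pools, against 0.26, 0.15 and 4.30 FPKM in ovary pools (difference 2.57 ± 1.13, edgeR adjusted p = 0.0823). The groups did not overlap, and the third ovary pool was far above the other ovary pools. The skeletal light chain myl1 had 3.09, 5.13 and 2.61 FPKM in testis, against 0.55, 0.33 and 1.90 FPKM in ovary (1.19 ± 0.56, edgeR adjusted p = 0.0692), and ovary pool 3 was again the highest of its group. Without ovary pool 3 both light chains were raised.

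Of 6 entries described as myomesin, 5 were tested and 4 were raised. The myomesin gene myom3 had 93.2, 90.8 and 73.0 FPKM in testis pools, against 2.13, 2.39 and 3.16 FPKM in ovary pools, and no other library exceeded 3.16 FPKM. Its differences were 4.27 ± 0.19 log2 units against ovary (edgeR adjusted p = 4.23e-09), 7.92 ± 0.57 against male brain, 5.50 ± 0.49 against male pituitary and 8.41 ± 0.68 against male liver. myom2b had 58.7, 57.0 and 50.4 FPKM in testis and was the one myomesin with a clear ovary level, at 9.92, 8.41 and 10.2 FPKM (1.74 ± 0.14, edgeR adjusted p = 4.54e-07). myom2a had 54.5, 37.5 and 44.4 FPKM in testis and an average of 0.1 FPKM in ovary, and passed the filter only through testis. myom1b had 23, 33.0 and 24.4 FPKM in testis, and ovary came next with 1.89 FPKM. The 4 genes thus ranged from 26.8 to 85.7 FPKM in their testis means, and only myom2b exceeded 3 FPKM in its next group. The other myomesin-1 gene, myom1a, was not tested against ovary. The remaining tested entry, LOC103387924, is described as myomesin-3 but carries the RefSeq symbol ifnlr1 and neighbours myom3. It had 3.33, 3.32 and 4.89 FPKM in testis and overlapping values of 2.48, 4.62 and 2.52 FPKM in ovary.

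Of 4 myosin-binding protein C entries, 2 were tested and raised, both passing the filter only through testis. The fast-type LOC103382023 had 19.6, 26.8 and 18.04 FPKM in testis pools, against 0.42, 0.43 and 0.82 FPKM in ovary pools (4.49 ± 0.27, edgeR adjusted p = 5.45e-08). The cardiac-type mybpc3 had 6.69, 9.40 and 9.85 FPKM in testis, against 1.22, 0.08 and 0.42 FPKM in ovary (3.00 ± 0.77, edgeR adjusted p = 0.0114). In female brain, the next group, mybpc3 averaged 0.833 FPKM, so its testis pools were all at least 5 FPKM above any other library.

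Of 9 titin-like entries tested in all 4 contrasts, 5 were raised. Among these, LOC103380516, LOC103380534, LOC103391545 and ttn.1 passed the filter only through testis, so that being tested came close to being raised. LOC103380516 had 7.80, 4.82 and 6.21 FPKM in testis and no count in any ovary library, which puts it at least 195-fold higher on the scaled counts of the fit and at least 344-fold by count totals alone (3 counts set over the ovary group). ttn.1, named after a titin gene of zebrafish, had 4.28, 3.03 and 5.01 FPKM in testis, against 0.02, 0.01 and 0.01 FPKM in ovary (7.42 ± 0.30, edgeR adjusted p = 4.86e-09). LOC103380534 averaged 4.98 ± 1.80 FPKM and LOC103391545 averaged 1.69 ± 0.482 FPKM in testis (SD, n = 3), with 0.283 and 0.303 FPKM in the next group. LOC103384548 passed the rule by a narrow margin over brain: it had 21.8, 28.1 and 28.3 FPKM in testis and 11.9, 13.2 and 12.9 FPKM in male brain (0.80 ± 0.19, edgeR adjusted p = 0.00103). LOC103377223 was not raised: its testis pools of 32.2, 30.1 and 35.7 FPKM all lay above its ovary pools of 15.7, 20.0 and 17.9 FPKM, but the fitted difference was 0.07 ± 0.14 (edgeR adjusted p = 0.626), since the fit scaled ovary libraries up relative to testis. Titin-like is a word for similarity over repeated domains, and the entry alone does not show that the protein is titin.

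**Figure D2:**
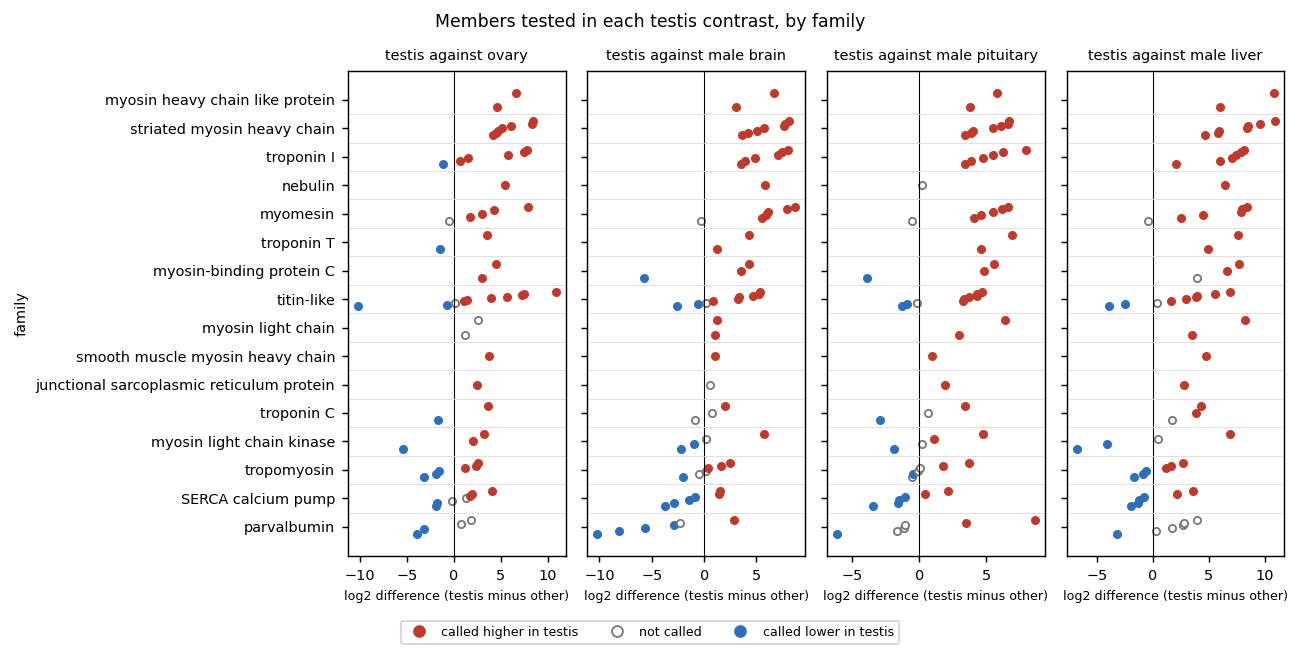
log2 difference of each tested gene in 4 panels, testis minus ovary, male brain, male pituitary and male liver, grouped by protein family, with genes called higher in red, lower in blue and not called as open points. The 7 striated myosin heavy chains tested in all panels, which passed the filter only through testis, and 4 of 5 tested myomesins are red in each panel, while SERCA pumps, tropomyosins and parvalbumins spread to both sides of 0.

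On the thin filament, troponin I, the inhibitory subunit, was raised in 5 of 6 tested entries. Of these 5, the 4 fast-type genes passed the filter only through testis, so that being tested came close to being raised. The difference between troponin subunits was not tested. The fast-type LOC103379932, LOC103379933, LOC103379934 and LOC103379939 averaged 4.47 ± 1.14, 2.01 ± 0.576, 3.78 ± 1.21 and 3.15 ± 1.55 FPKM in testis (SD, n = 3), and 0.787 FPKM, for LOC103379934 in ovary, was the highest of their means in any other group. These 4 lie next to each other with LOC103379937 and LOC103379938 in the RefSeq annotation, so that reads could be shared among near copies, and their separate values are uncertain. The slow-type LOC103382756 had 7.75, 8.23 and 8 FPKM in testis, against 2.36, 4.10 and 2.84 FPKM in ovary. Its pools did not overlap, but the difference of 0.67 ± 0.29 lay at the threshold (edgeR adjusted p = 0.0484), and it was lost without any of 5 of the 6 gonad libraries (edgeR adjusted p of at most 0.179) and in 11 of 27 settings overall.

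Troponin T was raised in 1 of the 2 tested genes, and troponin C in none of its tested genes. The fast-type troponin T LOC103379943 had 20.5, 22.6 and 17.1 FPKM in testis pools, against 0.91, 0.51 and 1.93 FPKM in ovary pools (3.46 ± 0.36, edgeR adjusted p = 4.18e-06). LOC103379943 also passed the filter only through testis. The slow-type tnnt1 went the other way against ovary, with means of 4.22 FPKM in testis and 6.79 FPKM in ovary. The slow and cardiac troponin C tnnc1a had 4.59, 5.55 and 4.60 FPKM in testis, above all other 21 libraries, but its differences of 0.74 ± 0.36 against male brain (edgeR adjusted p = 0.0693) and 0.66 ± 0.36 against male pituitary (edgeR adjusted p = 0.108) missed the threshold. The skeletal troponin C LOC103384678 had 3.36, 7.82 and 3.63 FPKM in testis and 8.30, 4.85 and 14.4 FPKM in ovary. These pools overlapped, although edgeR called the gene lower in testis (-1.70 ± 0.43, adjusted p = 0.0039); without scaling beyond the count total the call was lost (-0.89, edgeR adjusted p = 0.0801). 

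Tropomyosins were the most abundant of the 92 genes in testis. tpm1, tropomyosin alpha-1, had 139, 118 and 222 FPKM in testis pools, against 38.5, 36.2 and 44.97 FPKM in ovary pools (1.17 ± 0.22, edgeR adjusted p = 0.000612), and its lowest difference was 1.15 ± 0.32 against male liver. The tropomyosin beta gene LOC103389160 had 19.4, 14.9 and 29.5 FPKM in testis, against 2.09, 1.79 and 3.51 FPKM in ovary (2.29 ± 0.33, edgeR adjusted p = 7.18e-05). tpm4a had 93.4, 130 and 120 FPKM in testis, against 13.0, 12.4 and 12.1 FPKM in ovary, but male brain held 82.9, 97.7 and 83.0 FPKM and the difference there was not called (0.18 ± 0.15, edgeR adjusted p = 0.284). The fit called tpm4a lower in testis than in male liver (-0.65), a direction that turned without scaling beyond the count total (1.75). LOC103388042, a tropomyosin alpha-4, was abundant everywhere, at 105 ± 6.43 FPKM in testis and 179 ± 32.3 FPKM in ovary (SD, n = 3; -1.57 ± 0.15, edgeR adjusted p = 1.48e-06).

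The nebulin gene neb set testis and pituitary apart from the other organs. It had 6.88, 7.97 and 7.06 FPKM in testis pools, against 5.46, 4.22 and 4.41 FPKM in male pituitary pools. All testis pools were the higher, but the fitted difference was 0.19 ± 0.17 (edgeR adjusted p = 0.302). In ovary neb had 0.12, 0.10 and 0.06 FPKM, and its testis minus ovary difference was 5.46 ± 0.24 (edgeR adjusted p = 4.49e-09).

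Of the SERCA pumps, 2 of 6 tested were raised. atp2a1 encodes the pump of fast skeletal fibres. It had 9.08, 6.35 and 6.89 FPKM in testis, against 2.15, 2.26 and 2.31 FPKM in male brain, 0.97, 1.13 and 1.64 FPKM in male pituitary, 0.05, 0.14 and 0.17 FPKM in male liver and 0.21, 0.32 and 0.22 FPKM in ovary. Its differences were 1.48 ± 0.25, 2.15 ± 0.26 and 3.57 ± 0.33 against these male organs and 4.09 ± 0.28 against ovary (largest edgeR adjusted p = 5.46e-05). Female brain was the next highest group with 2.78 ± 0.513 FPKM (SD, n = 3). The SERCA 2 entry LOC103383309, a pump of the endoplasmic reticulum in many cell types, had 46.3, 31.9 and 46.2 FPKM in testis and 21.6, 22.5 and 23 FPKM in male pituitary, where its difference was smallest (0.46 ± 0.15, edgeR adjusted p = 0.0104), and this call was lost without testis pool 1 (0.33, edgeR adjusted p = 0.0623). A second fast-type pump entry, atp2a1l, had 1.72, 3.28 and 0.50 FPKM in testis. Of the kinases that phosphorylate myosin light chain, LOC103391518 was raised, with 4.72, 4.26 and 6.63 FPKM in testis against 0.43, 1.19 and 0.60 FPKM in ovary (2.05 ± 0.37, edgeR adjusted p = 0.000303). LOC103391518 passed the filter only through testis.

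Of the 32 raised genes, 29 stayed raised when any 1 library of the gonads or male organs was left out, 31 under both other scalings of the counts, and 17 in all 27 settings that were run. These 17 were myom1b, myom2a, myom2b, myom3, LOC103388986, LOC103391082, LOC103385795, XLOC_003880, XLOC_003881, LOC103394689, LOC103397806, LOC103382023, mybpc3, LOC103379943, tpm1, LOC103389160 and atp2a1. Of the 32, 21 passed the filter only through testis, and leaving out a library kept the genes of the full fit. For these 21, staying raised was close to fixed and adds no support. Among the 17 this holds for all but myom1b, myom2b, myom3, LOC103397806, tpm1, LOC103389160 and atp2a1. A filter at 5 FPKM removed 11 genes with low levels. The 3 genes that did not stay raised without each library in turn were LOC103382756, LOC103379934 and LOC103383309. In the male pituitary group, pool 3 was the highest pool for 27 of the 32, with a summed 94.6 FPKM over these genes against 74.5 and 67.1 FPKM in pools 1 and 2. The share over all raised genes of the table was not counted. Male pituitary pool 3 carried oocyte transcripts and was also highest for genes typical of testis. In male pituitary pools 1 to 3, dmrt1 had 0.16, 0 and 1.09 FPKM and insl3 had 0, 0 and 1.29 FPKM. With pool 3 of both pituitary groups left out, the count raised was again 32.

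Among testis pools the raised genes varied with a median coefficient of variation of 21.4%, against 15.3% for all raised genes of the table. Of the 62 genes with a testis mean of 1 FPKM or more, 14 had 1 pool at least 1.5 times as high as each of the other 2. By this definition each of the 14 could stand out in 1 pool only. In pool 1 they were LOC103388986, LOC103391082, LOC103394689 and LOC103380534, all raised. In pool 2 they were myl1, myom1a, atp2a1l, LOC103384678, LOC103382348 and LOC103392898, none of them raised. In pool 3 they were tpm1, LOC103389160, XLOC_015635 and mylkb, of which the first 3 were raised. The parvalbumin LOC103392898 shows the size of the pool 2 excess, with 6.17, 14.8 and 4.06 FPKM in pools 1 to 3.

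Over the table, 2.64%, 5.4% and 1.94% of 16106 genes at 1 FPKM or more stood out in pools 1, 2 and 3 by the same margin. Some marker genes did as well. Testis pool 1 was also the highest by that margin for 4 of 6 spermatid and sperm genes, among them the sperm tail gene ropn1l (118, 54.4 and 47.5 FPKM in pools 1 to 3) and the flagellar tektin tekt1 (32.2, 14.0 and 13.2 FPKM). That list of 11 genes summed to between 96.2 and 230 FPKM in testis libraries, against 18.6 to 28.6 FPKM in ovary libraries. Pool 2 was the highest for 5 of 43 other muscle genes, among them the skeletal actin acta1a (8.73, 21.8 and 5.25 FPKM). Pool 3 was the highest for 3 of 11 smooth muscle genes, among them tagln (247, 233 and 401 FPKM) and the smooth muscle myosin myh11b (39.9, 40.7 and 75.9 FPKM). The lists did not each keep to 1 pool: the actin acta1b and the smooth muscle leiomodin LOC103386697 stood out in pool 1, and desmb and smyd1b in pool 3. The part of these cell types in the levels of the 92 genes was not tested.

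**Figure D3:**
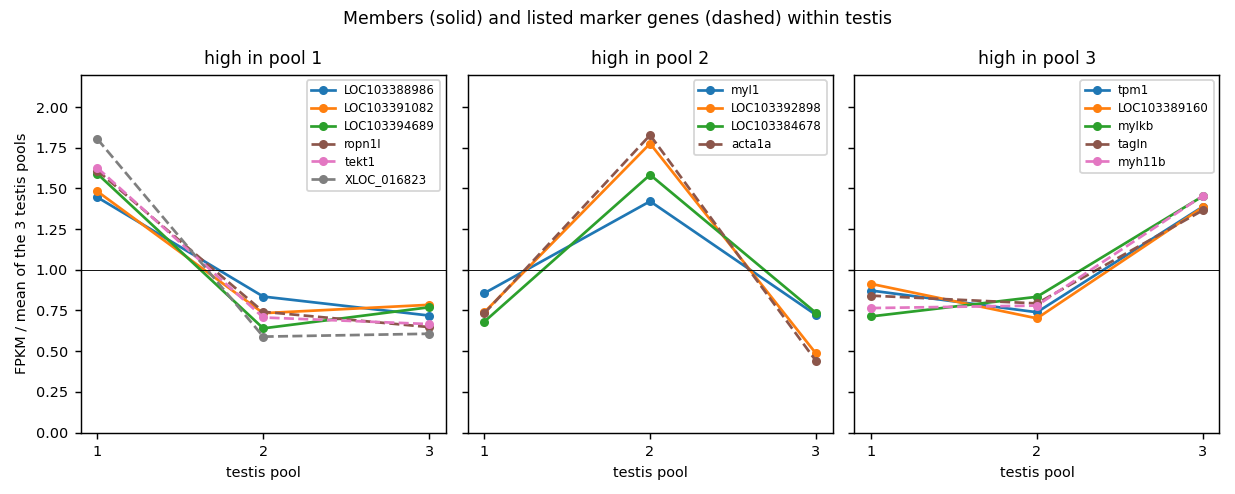
FPKM of selected genes in testis pools 1, 2 and 3, each divided by its mean over the 3 pools, in panels for genes highest in pool 1, pool 2 and pool 3. Solid lines are genes of the 92 and dashed lines are spermatid genes (left), a skeletal actin (middle) and smooth muscle genes (right), chosen because they peak in the same pool.

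Other muscle genes were counted by the same rule. Of 90 other genes of skeletal or cardiac muscle, chosen outside the search terms, 47 stayed below 1 FPKM in testis and 13 of the 40 tested in all 4 contrasts were raised, beside the 15.1% of all genes; the difference from the 92 was not tested. Against ovary 23 of 41 were higher and 9 lower (all genes: 45.4% higher, 38.8% lower). The 13 were the actin acta1b, the Z-disc genes actn3b and LOC103386977 (LDB3), the desmin gene desmb, the obscurin genes obscna and obscnb, the obscurin-like LOC103393576, the muscle methyltransferase smyd1b, and 5 entries of the calcium release machinery. Those 5 were the ryanodine receptors LOC103392837, LOC103393003 and LOC103395719, which release calcium from the sarcoplasmic reticulum, and LOC103385091 and XLOC_002630, described as the alpha-1S calcium channel of the muscle membrane. The 3 most abundant of the 90 in testis were a glycogen phosphorylase (LOC103391662, 27.8 FPKM), LOC103393003 (22.5 FPKM) and ryr3 (20.9 FPKM). The defining transcription factors of skeletal muscle stayed below 1 FPKM in testis: myod1 averaged 0.543, myog 0.0367, myf5 0.117 and myf6 0.13 FPKM. For myod1, myf5 and myf6 testis was still the highest group mean, and for myog it was male brain (0.06 FPKM). myod1 had 0.6, 0.24 and 0.79 FPKM in testis pools and 0 in male brain, male pituitary and male liver. The Z-disc gene tcap averaged 0.183 FPKM in testis and smpx was at 0, while the muscle creatine kinase ckmb averaged 11.5 FPKM and acta1a 11.9 FPKM. In ovary ckmb averaged 1.03 FPKM and acta1a 14.6 FPKM. The 90 genes summed to 252 to 303 FPKM in testis, 549 to 596 in male brain, 332 to 342 in male pituitary, 214 to 244 in male liver and 505 to 585 in ovary. Single genes held much of several sums, so they do not describe the 90 genes as a set. LOC103387247, described as alpha-actinin-2, had 436, 365 and 452 FPKM in ovary pools. eno3 had 196, 183 and 211 FPKM in male liver pools. LOC103391662 had 266, 248 and 299 FPKM in male brain pools.

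Most smooth muscle genes were high in testis. Of 12 such genes, 8 of 11 tested were raised. Beside this count, and the heart and red blood cell counts below, stands the 15.1% of all genes. How many genes of these lists passed the filter only through testis was not counted. The 12 genes summed to 608 to 1070 FPKM in testis libraries, against at most 128 FPKM in any other library. The actin gene acta2, counted in that sum, had 391, 248 and 480 FPKM in testis pools. Its symbol is that of smooth muscle actin, but its deposited description is alpha skeletal muscle B-like actin. The calponin gene cnn1b was an exception, with a mean of 9.86 FPKM in testis and 18.2 FPKM in ovary, and synpo2b averaged 0.513 FPKM in testis and 0.863 FPKM in ovary. Of 9 heart genes, 1 of 2 tested was raised, the transcription factor gene tbx5a at 4.23 FPKM. The cardiac light chain myl7 was at 0 in testis and the cardiac myosin myh6 averaged 0.0367 FPKM. The cardiac factor nkx2.5 was at 0 in every group but ovary (0.147 FPKM). The Nkx-2.5-like entries LOC103383200 and nkx2.7 averaged 0.4 and 0.477 FPKM in testis. Testis was the highest group for LOC103383200, and ovary (1.5 FPKM) for nkx2.7. The natriuretic peptide gene nppb had 1.05, 2.14 and 4.96 FPKM in testis pools. It had 5.27, 7.54 and 2.65 FPKM in male liver pools and 0 in ovary and male brain. Of the heart genes edgeR called 2 higher in testis than in each of ovary, male brain and male pituitary. The shares of all genes were 45.4, 40.5 and 39.2%. The heart genes summed to 7.51 to 9.38 FPKM in testis, 1.85 to 2.73 in ovary and 5.88 to 9.24 in male liver. Of 12 red blood cell genes, 1 of 6 tested was raised, and they summed to 318 to 602 FPKM in testis libraries and to 82.3 to 105 FPKM in ovary libraries.

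Some of the 92 genes were highest in ovary. LOC103395842, a titin-like entry, had 0.07, 0.16 and 0.09 FPKM in testis pools, against 69.2, 76.0 and 80.3 FPKM in ovary pools. Every other library was at 0.55 FPKM or less, with male pituitary pool 3 and female pituitary pool 3, which carried oocyte transcripts, at 0.55 and 0.42 FPKM. The testis minus ovary difference of -10.27 ± 0.23 (edgeR adjusted p = 8.16e-11), or 1230-fold, was the largest in that direction. The kinase LOC103381494 had 1.60, 2.84 and 2.49 FPKM in testis, against 53.1, 46.1 and 71.2 FPKM in ovary (-5.43 ± 0.24, edgeR adjusted p = 7.9e-09). The tropomyosin alpha-3 gene LOC103396474 had 8.04, 9.76 and 13.3 FPKM in testis, against 49.97, 56.1 and 57.8 FPKM in ovary (-3.20 ± 0.19, edgeR adjusted p = 3.94e-08). In these 3 genes no testis pool came within 3-fold of an ovary pool. The other 10 genes lower in testis were LOC103392892, pvalb8, LOC103397440, LOC103379363, atp2a3, LOC103384678, LOC103388042, tnnt1, LOC103384557 and LOC103383206, and the last turned without scaling beyond the count total (-0.76 with scaling, 0.04 without). LOC103384557 was not called without any of 4 of the 6 gonad libraries (highest edgeR adjusted p = 0.136), and LOC103383206 lost its call without testis pool 1 (edgeR adjusted p = 0.069).

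The 3 genes lower in testis in all 4 contrasts were LOC103381494 and the calcium pumps atp2a3 (3.30 FPKM in testis) and LOC103397440, a SERCA 2 entry (9.46 FPKM in testis). Of these, atp2a3 and LOC103397440 were lower than in male liver only with scaling (-1.95 and -0.78; without it 0.44 and 1.61). LOC103397440 was most abundant in brain, with 9.89, 9.72 and 8.77 FPKM in testis pools against 57.4, 65.4 and 55.5 FPKM in male brain pools (-2.88 ± 0.16, edgeR adjusted p = 1.85e-10).

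Some of the 92 genes stood out in 1 ovary pool, and the share over the whole table was not counted for ovary. Pool 2 was at least 1.5 times as high as each other ovary pool for LOC103384557 and LOC103387924, among 29 genes at 1 FPKM or more. Pool 3 stood out by that margin for 6 of the 29: LOC103379943, LOC103384678, LOC103389160, mylz3, LOC103392898 and LOC103393398. Of 20 other muscle genes at 1 FPKM or more in ovary, 3 stood out in pool 3: ampd1, ckmb and ckma. The muscle creatine kinases ckmb and ckma had 0.24, 0 and 2.85 FPKM and 0.25, 0.15 and 3.16 FPKM in ovary pools 1 to 3. Another creatine kinase M-type entry, LOC103383365, stood out in pool 1 instead, with 5.37, 2.36 and 2.69 FPKM. Without ovary pool 3 the count of the 92 genes raised in testis was 33: myl1 and mylz3 became raised, and LOC103382756 no longer was.

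The 2 most abundant parvalbumins were high in brain and near 0 in testis. pvalb6 had 0.26, 0.13 and 0 FPKM in testis pools, against 146, 131 and 200 FPKM in male brain pools (-10.20 ± 0.39, edgeR adjusted p = 3.42e-12). pvalb7 had 0.91, 0.49 and 0.42 FPKM in testis, against 135, 180 and 128 FPKM in male brain (-8.14 ± 0.31, edgeR adjusted p = 3.8e-12). Female brain was at a like level, with 134, 135 and 143 FPKM for pvalb6 and 151, 143 and 120 FPKM for pvalb7, and neither differed between the sexes by the test (0.26 ± 0.16 and 0.13 ± 0.13 log2 units, edgeR adjusted p = 0.301 and 0.533). pvalb9 was highest in pituitary, with 8.06, 6.04 and 11.9 FPKM in males and 14.1, 6.56 and 4.44 FPKM in females.

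A few muscle genes in brain followed single pools. The myosin-binding protein C gene mybpc1 had 1.92, 5.92 and 0.62 FPKM in male brain pools and 4.34, 1.93 and 0.19 FPKM in female brain pools. The parvalbumin pvalb8 had 5.06, 26.3 and 6.10 FPKM in male brain and 13.6, 5.65 and 4.39 FPKM in female brain, and LOC103382348 had 11.3, 31.1 and 3.56 FPKM and 22.5, 11.4 and 0.34 FPKM. All 3 were highest in male brain pool 2 and female brain pool 1, where the myoglobin gene mb was also the highest by 1.5 times. Of 30 other muscle genes at 1 FPKM or more in male brain, only mb stood out in pool 2 by that margin. In female brain 2 of 30 did so in pool 1, mb and LOC103390049. Of 34 sarcomere or muscle calcium genes at that level, 4 stood out in male brain pool 2, among them tnnc1a. In female brain pool 1 it was 3 of 34. The share over the whole table was not counted for brain.

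In pituitary the skeletal troponin C LOC103384677, a neighbour of LOC103384678, had 1.39, 2.01 and 0.91 FPKM in testis pools, against 6.03, 11.5 and 7.38 FPKM in male pituitary pools (-2.96 ± 0.47, edgeR adjusted p = 3.74e-05). In liver the kinase mylk5 had 0.68, 0.49 and 0.44 FPKM in testis, against 10.9, 11.5 and 13.0 FPKM in male liver (-6.83 ± 0.23, edgeR adjusted p = 1e-12). The genes with the 3 highest means were pvalb6, pvalb7 and tpm4a in male brain, LOC103388042, tpm4a and atp2a2b in male pituitary, LOC103388042, tpm4a and tpm1 in both livers, LOC103388042, LOC103395842 and LOC103381494 in ovary, and tpm1, tpm4a and LOC103388042 in testis. In female brain they were pvalb7, pvalb6 and LOC103388042, and in female pituitary LOC103388042, tpm4a and atp2a3.

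**Figure D4:**
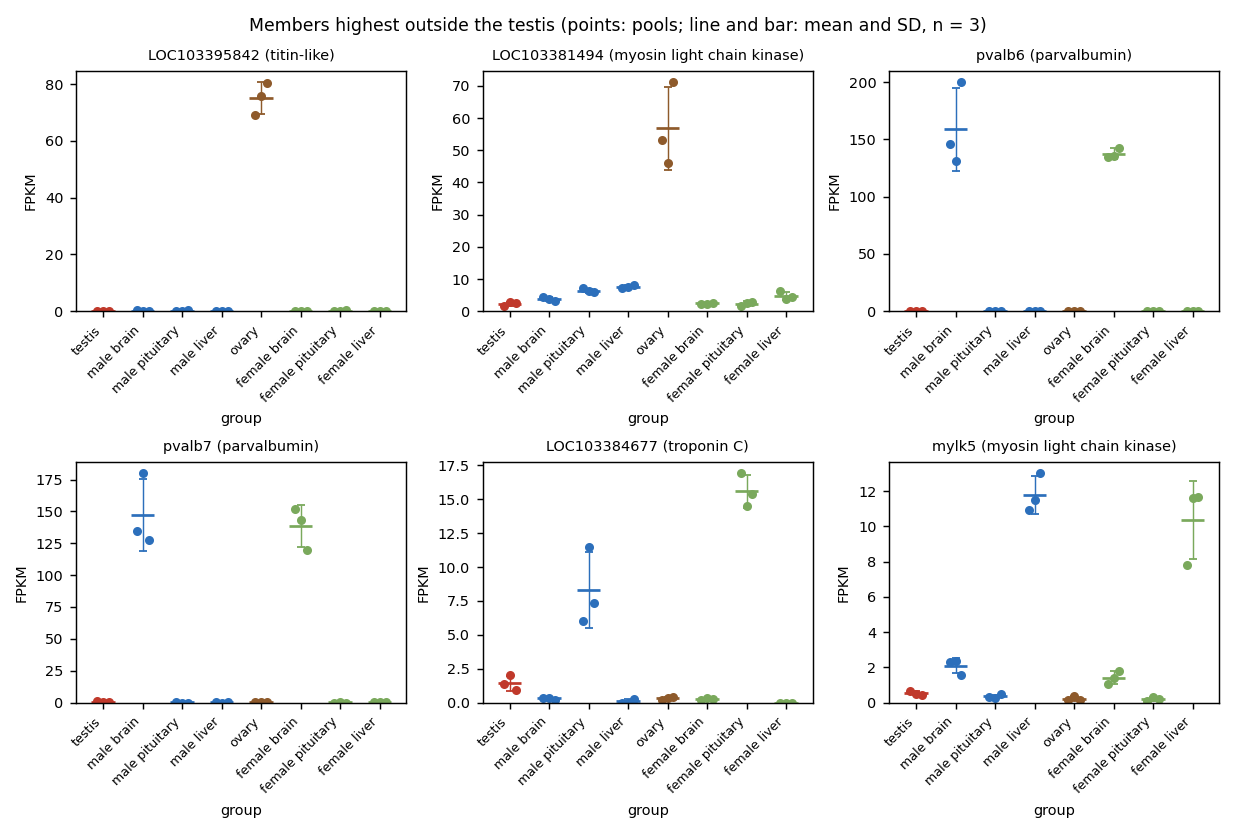
FPKM of 6 genes of the 92 with little or no signal in testis, by group, with 1 point per pool and a bar at the group mean. LOC103395842 and LOC103381494 peak in ovary, pvalb6 and pvalb7 in both brains, LOC103384677 in both pituitaries and mylk5 in both livers.

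Between the sexes the same genes were compared organ by organ in brain, pituitary and liver. In brain 5 of 35 tested genes were higher and 5 lower in males (10.9% and 9.36% of all genes), in pituitary 4 of 29 were higher and 3 lower (14.3% and 12.4%), and in liver 0 of 16 were higher and 1 lower (4.94% and 1.88%). At an unadjusted p under 0.05 edgeR had 3 genes higher and 1 lower in male liver, and DESeq2 called 2 higher after adjustment. No striated myosin heavy chain and no troponin I passed the filter of these comparisons. As shares of the genes tested, 14.3% were called in each direction in brain, and 13.8% higher and 10.3% lower in pituitary, which is close to the whole table.

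The largest sex differences were in XLOC_024526, an unannotated locus described as SERCA 2. In brain it had 5.84, 4.27 and 10 FPKM in males, against 26.6, 34.9 and 41.4 FPKM in females (-2.27 ± 0.40, edgeR adjusted p = 0.0264). In pituitary it averaged 6.71 ± 2.13 FPKM in males and 27.7 ± 7.91 FPKM in females (SD, n = 3; -2.0 ± 0.31, edgeR adjusted p = 0.00648), and in liver 2.17 ± 0.756 FPKM in males and 7.50 ± 3.51 FPKM in females (-1.61 ± 0.35, edgeR adjusted p = 0.033). In gonad the direction was opposite, with 3.27, 4.68 and 5.34 FPKM in testis, against 0.96, 0.70 and 0.93 FPKM in ovary (1.65 ± 0.27, edgeR adjusted p = 0.000175). The pituitary call was kept in every other setting, the brain call was lost without any of 5 of the 6 brain libraries (edgeR adjusted p between 0.0513 and 0.107), and the liver call without any of 5 of the 6 liver libraries (edgeR adjusted p between 0.0533 and 0.0922). The locus numbered next to it, XLOC_024525, also described as SERCA 2, was above 0 FPKM in 10 of the 12 female libraries, at up to 1.12 FPKM in ovary, and at 0 in all male libraries except male pituitary pool 3 (0.11 FPKM).

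The SERCA 2 entry LOC103397440 was higher in male brain, with 57.4, 65.4 and 55.5 FPKM in males against 38.2, 37.5 and 38.7 FPKM in females (0.68 ± 0.07, edgeR adjusted p = 7.12e-06). A titin-like entry, LOC103381736, was lower there, with 7.90, 9 and 7.57 FPKM in males against 15.1, 15.4 and 14.8 FPKM in females (-0.85 ± 0.10, edgeR adjusted p = 1.95e-05). Neither pair of groups overlapped, and both calls were kept in every other setting run. The smaller calls in brain were LOC103381494 (0.65), LOC103396474 (0.59), LOC103379363 (0.31) and atp2a2b (0.25) higher in males, and LOC103383206 (-0.63), LOC103389160 (-0.56) and LOC103388042 (-0.26) lower, all in log2 units. Each of these 7 calls was lost in at least 1 other setting, and that of LOC103389160 without any 1 of the 6 libraries.

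In pituitary the kinases stood out. LOC103381494 had 7.12, 6.13 and 5.85 FPKM in males, against 1.49, 2.66 and 2.89 FPKM in females (1.47 ± 0.23, edgeR adjusted p = 0.00111). mylkb had 5.97, 4 and 5.75 FPKM in males, against 2.55, 2.4 and 2.41 FPKM in females (1.12 ± 0.19, edgeR adjusted p = 0.00196). Both were kept in every other setting that tested them. The troponin C LOC103384677 had 6.03, 11.5 and 7.38 FPKM in males, against 16.9, 14.5 and 15.4 FPKM in females (-0.89 ± 0.23, edgeR adjusted p = 0.0165), and was not called without male or female pituitary pool 1 (edgeR adjusted p = 0.0607 and 0.0627). neb had 5.46, 4.22 and 4.41 FPKM in males and 2.66, 3.63 and 3.77 FPKM in females (0.51 ± 0.15, edgeR adjusted p = 0.0285), and was not called without female or male pituitary pool 1 (edgeR adjusted p = 0.0957 and 0.111).

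**Figure D5:**
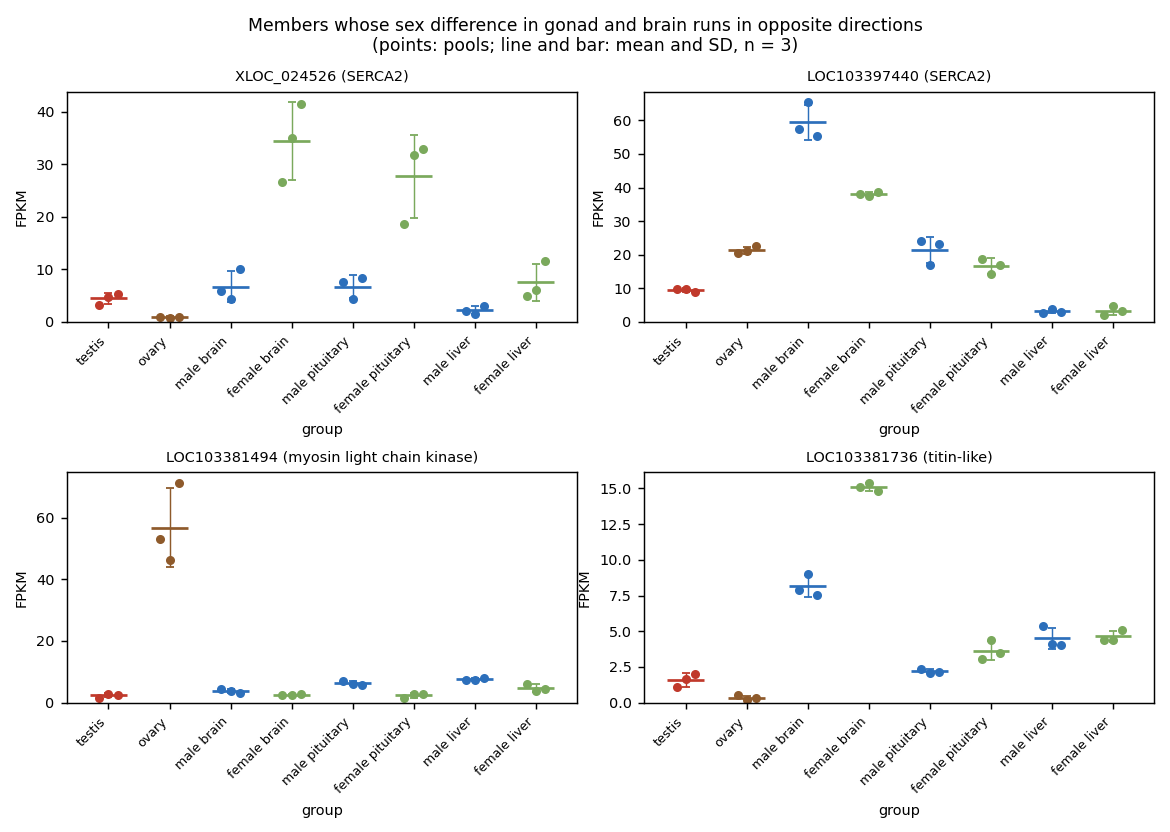
FPKM of XLOC_024526, LOC103397440, LOC103381494 and LOC103381736 in males (left of each pair) and females (right) in gonad, brain, pituitary and liver, with 1 point per pool and a bar at the mean. XLOC_024526 is lower in males in brain, pituitary and liver and higher in testis than in ovary, and LOC103381494 is higher in male pituitary and far lower in testis than in ovary.

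A term for sex by organ, fitted with edgeR to the 18 libraries outside the gonads, asked whether a sex difference was larger in one organ than in another. Of 41 genes tested, 2 were called, beside 8.83% of all genes: LOC103381736 (edgeR adjusted p = 0.0218) and neb (edgeR adjusted p = 0.0485). The call of neb lay near the threshold, and neb did not pass the filter of the sex comparison in brain or in liver. LOC103381736 was lower in males in brain and in pituitary (-0.69 ± 0.20), with a difference of 0.08 ± 0.19 in liver. Its pituitary call was lost without any of 5 of the 6 pituitary libraries (highest edgeR adjusted p = 0.139).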

How the data were processed

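The data were 24 RNA sequencing libraries. The authors deposited, per the file headers, 1 table with an estimated count and an FPKM value for every gene and library, with descriptions and symbols. The submitters' processing notes name Bowtie2 and TopHat2 (version 2.0.3.12). Build, annotation, counting tool and use of strand: not given in the sources used here. Deposited counts were whole in 97.1 to 98.4% of values and were rounded. Because the counting is not described, reads of close copies, neighbours and overlapping genes may have been split between entries.

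Differences were tested on the counts with edgeR 4.0.16 in R 4.3.3 (TMM scaling, robust quasi-likelihood fit) for genes that reached 1 FPKM in 3 or more libraries of the fit, with Benjamini-Hochberg adjustment over all genes tested. Testis and ovary, and the sexes of each other organ, were fitted on their 6 libraries, the 4 male organs on 12, and the sex by tissue term on 18. log2 differences are testis or male minus the other group. Their SE is the size of the difference divided by the root of the F statistic. Levels are means of FPKM, and scaling makes a fitted fold differ from a ratio of FPKM: scaling factors were 1.26 to 1.37 in testis and 0.734 to 0.77 in ovary, and in the fit of male organs 1.62 to 1.78 in testis and 0.298 to 0.341 in male liver. The fit was tested on counts simulated with 1 fixed spread. It recovered 38 to 51% of 2-fold and 97 to 100% of 4-fold changes in the comparisons of 2 groups. For the sex by tissue test these shares were 11% and 93%. A gene that was not called can still differ by 2-fold.

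Alternatives were median-ratio and no scaling, DESeq2 1.42.0, no filter, a 5 FPKM filter, limma 3.58.1 on log2(FPKM + 1) or log2(FPKM + 0.1), all 24 libraries in 1 fit, a replicate block, only the 6 libraries compared, a log2 difference of at least 1, leaving out each library (keeping the genes of the full fit) and, chosen after the data were seen, leaving out both pituitary pools 3 and a 24-library test of gonad against organ.

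The 92 genes and the lists of other cell types were chosen with earlier results of these data known. Named were all raised genes, the 10 largest differences each way between testis and ovary, the 3 highest genes per group, the 5 largest sex differences each way, family members of these, and other muscle genes raised or among the 3 highest in testis. Genes standing out in 1 pool (1.5 times each other pool) and marker genes beside them were named after their values were seen. Gene names and neighbours come from the RefSeq table of Cse_v1.0. A planned count of promoter motifs was not run.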

Additional observations from a re-analysis of the deposited data

Results flagged for a closer look

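Among brain, pituitary and liver the sex difference itself differed for LOC103381736 (edgeR adjusted p = 0.0218) and for neb (edgeR adjusted p = 0.0485). LOC103381736 was lower in males in brain (-0.85 log2 units) and pituitary (-0.69), with 0.08 in liver. neb was higher in male pituitary. Its call for the difference between organs lay near the threshold. neb did not pass the filter of the sex comparison in brain or in liver.

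In 6 of the 92 genes the sex difference in gonad and that in another organ were both called and had opposite signs. Their pools did not overlap between the sexes in either organ. How many genes of the whole table met this rule was not counted. In each of the 6, the difference between these sex differences was called in a fit of all 24 libraries chosen after the data were seen. The 6 were picked by the same values, so that call was close to fixed and adds no support. The values below are the gonad difference minus the organ difference in log2 units, with edgeR adjusted p. Of 19501 genes tested over the whole table, 13523 were called for gonad against brain, 13158 against pituitary and 11516 against liver. For XLOC_024526, the SERCA 2 locus, edgeR gave 3.56 against brain (adjusted p = 1.51e-05), 3.36 against pituitary (adjusted p = 2.89e-05) and 3.0 against liver (adjusted p = 0.000133), being higher in testis than in ovary and lower in the 3 other male organs than in their female counterparts. For the light chain kinase LOC103381494 edgeR gave -6.43 against brain (adjusted p = 1.65e-13) and -7.17 against pituitary (adjusted p = 2.78e-14), being far lower in testis than in ovary. For the titin-like LOC103381736 edgeR gave 1.86 against brain (adjusted p = 3.84e-05) and 1.77 against pituitary (adjusted p = 0.000113). For the SERCA 2 entry LOC103397440 edgeR gave -3.0 (adjusted p = 2.73e-10), for LOC103379363 -2.58 (adjusted p = 9.83e-11) and for the tropomyosin beta gene LOC103389160 2.5 (adjusted p = 0.000451), all against brain. LOC103396474 also had opposite called signs (-3.20 in gonad, 0.59 in brain; difference -4.14, edgeR adjusted p = 2.15e-10), but its male and female brain pools overlapped. The brain differences of XLOC_024526, LOC103379363, LOC103381494 and LOC103389160, the pituitary difference of LOC103381736 and the liver difference of XLOC_024526 were each lost without at least 1 library.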

How the results depend on the processing

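The count of genes raised in testis was 32, and between 23 (5 FPKM filter) and 40 (limma on log2(FPKM + 1)) under the other settings; it was 31 with median-ratio scaling, DESeq2 or the replicate block, 38 without scaling, 35 without a filter, 30 with all 24 libraries in 1 fit, 28 at a log2 difference of at least 1, and 29 to 33 without single libraries. Of the called differences of the 92 genes, 8 turned their direction, all both without scaling and with each limma scale: the 7 against male liver named above and LOC103383206 against ovary (0.04 without scaling). Of the comparisons of named genes with their alternatives, 653 kept their side of the threshold and 58 did not. Deviations of same-numbered pools were weakly correlated between the groups compared (-0.138 to 0.211, no comparison with all above 0.1). Only in testis and male brain did every pool correlate best with its own number. These values cannot show whether pools of different organs shared fish. The replicate block is given here only: with it male brain had 3 genes lower, male liver 1 higher, and the sex by tissue test called 1.

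A 5 FPKM filter leaves fewer genes to test and gave 26 higher than male brain, male pituitary and male liver each, 8 lower than ovary, 3 lower in male brain, 2 higher in male pituitary, 0 lower in male liver and 1 by the sex by tissue test. Against male liver 3 were lower without scaling, with limma on log2(FPKM + 1) and on log2(FPKM + 0.1), and against male pituitary 7 with the first limma scale. Both limma scales gave 2 higher and 3 lower in male brain. DESeq2 gave 3 lower in male brain and 2 higher in male liver, and no filter gave 2 higher in male liver. All 24 libraries in 1 fit gave 1 higher and 2 lower in male brain, 2 higher in male pituitary, and 3 higher and 2 lower in male liver. The sex by tissue test called 1 gene with no filter, with limma on log2(FPKM + 0.1), with all 24 libraries or without both pituitary pools 3, and pituitary then had 1 lower. Leaving out single libraries gave 1 to 6 higher and 2 to 3 lower in male brain, 2 to 5 higher and 1 to 3 lower in male pituitary, 0 to 2 higher and 0 to 1 lower in male liver, and 1 to 5 by the sex by tissue test. The cause of these changes was not tested. Genes that missed the filter, among them the 22 below 1 FPKM in every group, were not tested, and 3 pools a group limit the precision of every difference.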
